A study of Saccharomyces cerevisiae with 22 samples.

Results

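The nuclear pore complex genes are the genes for the proteins that build the channels of the nuclear envelope. The list held 33 names, which the RefSeq annotation of the sacCer3 genome resolved to 32 genes, because NUP59 is a synonym of ASM4, among 6002 nuclear protein-coding genes. Sus1 is a small subunit of the SAGA and SLIK transcription coactivators and of TREX-2, a complex that sits at the pore and links transcription to mRNA export. The binding of Sus1 to chromatin was mapped by ChIP-exo, in which precipitated DNA is digested by an exonuclease as far as the cross-linked protein and then sequenced.

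All 3 strains compared carried Sus1 with a MYC tag at its own locus (SUS1-MYC::HIS3) in the BY4741 background, which has deletions in HIS3, LEU2, MET15 and URA3. They were the wild type, the spt7-1180 mutant, in which Spt7 lacks its C-terminal part, and the spt8Δ mutant, in which the gene is deleted. Both mutants carry the KanMX4 marker at the altered gene (spt7-1180::KanMX4 and spt8::KanMX4). The labels name the spt7 strain a deletion, whereas the text of the study gives the truncated allele. Both mutants are described there as having SLIK without SAGA. Cultures in YPD medium were kept at 25 °C or brought to 37 °C with hot medium for 15 min. Each combination of strain and temperature had 1 deposited peak list, which gave 6 lists with 16593 to 20179 peaks each.

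The lists do not carry an error between replicates. No test between conditions was possible, and every difference below describes these lists. Intervals are 95% intervals (Wilson for shares, exact Poisson for summits per kb) and cover counting error only. The lists also differed in their local background. The lowest local background that the deposited values allow, solved from the fold enrichment and p-value of each peak, was 10.8 reads in the wild type at 25 °C and 5.98 at 37 °C. It was 22.2 and 36.3 reads in spt7-1180, and 7.99 and 28.8 reads in spt8Δ, in the same order of temperature. The background therefore differed between strains and temperatures. How far it reflects sequencing depth is not known, since read totals and the control are not given. Its part in the differences between lists was not tested.

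The pore is built from rings of scaffold proteins around a central channel. The outer ring is a coat of Y-shaped complexes, the inner ring anchors the channel, and a membrane ring holds the assembly in the envelope. Proteins with phenylalanine-glycine (FG) repeats fill the channel and bind transport receptors. Filaments on the cytoplasmic side complete mRNA export, and a basket on the nuclear side docks TREX-2 through Nup1 and Nup60. The binding studied here is that of Sus1 to the DNA of the genes for these proteins, as the listed peaks give it. It does not report contact with the pore itself. The no-tag samples were left out, and the control behind the peaks is not given. Whether a listed summit exceeds the signal of an untagged strain was therefore not tested.

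For each gene, peak summits were counted in the 500 bp before the start codon (the upstream region), in the coding region with any intron, and in the 150 bp after the stop codon. Pore genes are long, with a median coding length of 2378 bp against 1200 bp for all genes, so coding summits are given per kb.

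The coding regions of the pore genes held more Sus1 summits per kb than those of the average gene in each of the 6 lists. In the wild type the density was 2.03 summits per kb (1.75 to 2.35) at 25 °C and 1.82 (1.55 to 2.12) at 37 °C, against 1.57 and 1.59 for all genes. The spt7-1180 lists gave 2.46 (2.15 to 2.81) and 2.55 (2.23 to 2.91), against 1.71 and 1.91. Those of spt8Δ gave 1.77 (1.5 to 2.07) and 1.88 (1.61 to 2.19), against 1.5 and 1.59. The ratio to all genes was lowest in the wild type at 37 °C, at 1.14 (0.97 to 1.33), and highest in spt7-1180 at 25 °C, at 1.44 (1.25 to 1.64). The interval of the ratio reached down to 1 in spt8Δ at 25 °C and below it in the wild type at 37 °C, and lay above 1 in the other 4 lists. Under the alternatives it included 1 in the wild type at 25 °C with the 5000 strongest peaks, where the ratio was 1.04 (0.753 to 1.4), and in spt8Δ at 37 °C with 250 bp left out at each end of the coding region, at 1.17 (0.979 to 1.38).

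Summed over the lists, the 32 genes held 1103 coding summits, a mean of 2.09 per kb and list, against 1.65 for all genes. The elevated density was not particular to the pore. A list of 28 genes for karyopherins, the Ran system and mRNA export, which work at the pore without being part of it, had a mean of 2.27 per kb. The 5 TREX-2 genes and a list of 7 genes for membrane proteins and assembly factors of the pore each had a mean of 1.49.

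**Figure D1:**
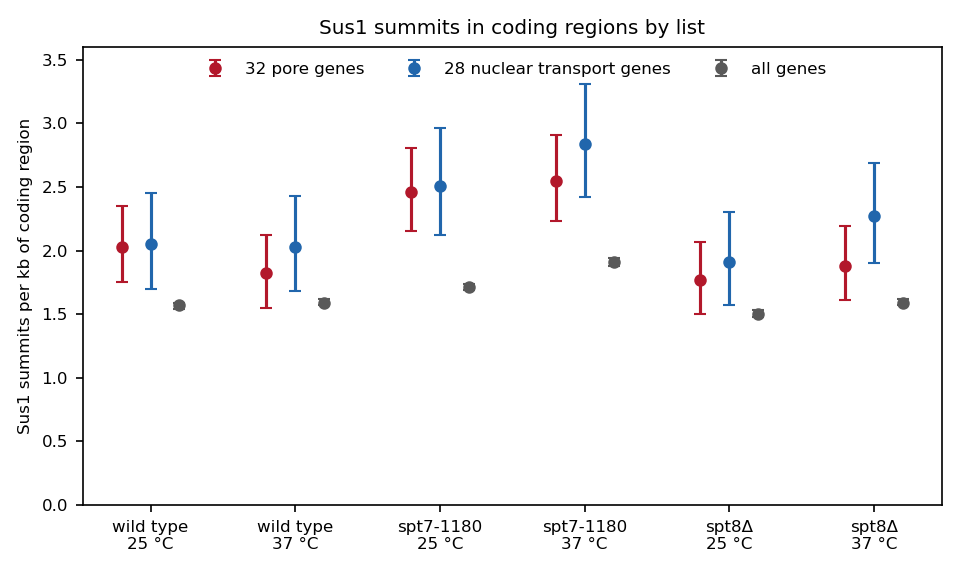
Sus1 summits per kb of coding region (vertical axis) in the 6 lists (horizontal axis) for the 32 pore genes, 28 nuclear transport genes and all genes. Points are the density over each set and bars are exact Poisson 95% intervals. The pore genes lie above all genes in every list, from 1.77 per kb in spt8Δ at 25 °C to 2.55 in spt7-1180 at 37 °C.

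The higher density of the pore genes was also found among genes of like length from 1000 bp upwards. Pore genes of 1000 to 2000 bp had a mean of 1.9 summits per kb against 1.61 for all genes of that length, and those of 4000 bp or more had 2.18 against 1.55. The 2 shorter members, SEC13 and POM34, together had 0.186 against 1.58. The median GC content of the coding region was 39.3% both for the pore genes and for the 3592 genes of at least 1000 bp. Genes with a lower GC content had more summits per kb, with a Spearman rho of -0.401 across the 32 pore genes and -0.305 across the 3592 genes. These correlations are across genes that share the same libraries and are given as descriptions. Of the 30 pore genes of at least 1000 bp, 21 lay above the median of genes of that length, which was 1.7 summits per kb.

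Within the coding region the summits were spread over the whole gene. From the start codon to the stop codon, the 5 equal parts of the pore genes held 17.6, 21.8, 21.3, 21.5 and 17.8% of their summits. In genes of at least 1000 bp these shares were 17.9, 19.2, 20.5, 20.9 and 21.4%, so the last part of the pore genes held a smaller share than that of genes in general. The strength of the peaks was that of the lists as a whole. The median fold enrichment of the peaks of pore genes was 3.06 in the wild type at 25 °C, where the list had 3.14, and 2.33 in spt7-1180 at 37 °C, where the list also had 2.33.

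By position in the pore, the genes of the nuclear basket had the highest mean coding density, at 2.32 summits per kb and list, and those of the central channel the lowest, at 1.74. Between them were the outer ring with 2.16, the inner ring with 2.07, the membrane ring with 2.06 and the cytoplasmic side with 2.03. The groups hold 3 to 7 genes each, and the genes within a group differed more than the groups did.

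**Figure D2:**
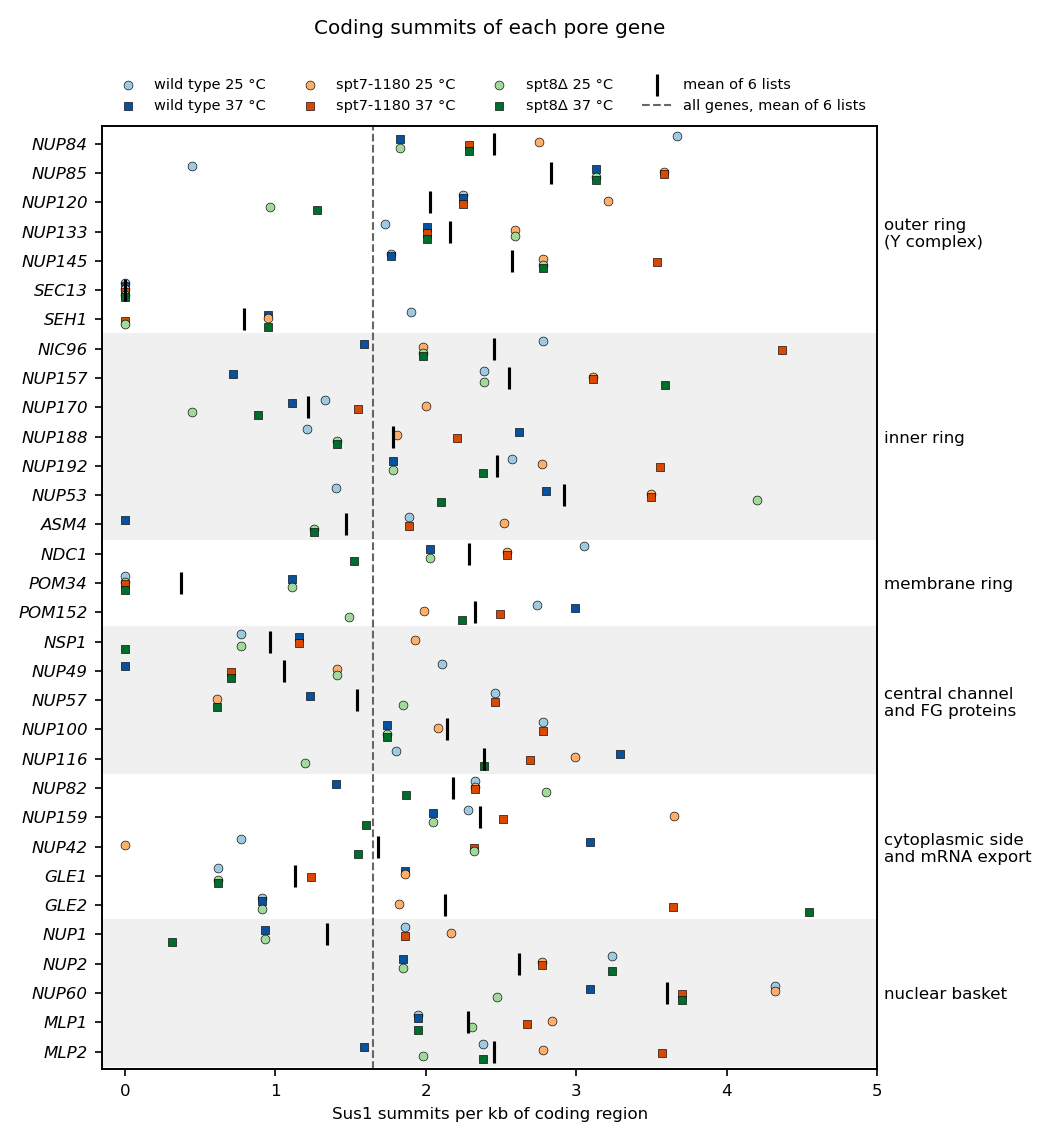
Sus1 summits per kb of coding region (horizontal axis) for each pore gene (vertical axis, by group). Points are the 6 lists, black bars their mean, and the dashed line the mean of all genes, 1.65. NUP60 has the highest mean, 3.6, and SEC13 has no summit in any list.

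NUP60, for the protein that anchors the basket to the pore, had the highest coding density of all members. Its coding region (chromosome 1, 152257 to 153876, plus strand, 1620 bp) held 7 summits in the wild type at 25 °C and 5 at 37 °C, 7 and 6 in spt7-1180, and 4 and 6 in spt8Δ. Its mean of 3.6 per kb was exceeded by 16 of the 3592 genes of at least 1000 bp. NUP60 also held the strongest peak of any pore gene in both mutant lists at 37 °C, with a fold enrichment of 5.12 at 708 bp after the start codon in spt7-1180 and 4.86 at 1065 bp in spt8Δ. Fold enrichment is the ratio of the signal at the summit to the local background of the same list. Of all peaks, 1.32% in spt7-1180 and 1.96% in spt8Δ at 37 °C were stronger.

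NUP53, for a linker of the inner ring that binds the membrane, followed with a mean of 2.92 per kb. It held 2 and 4 coding summits in wild-type cells at 25 and 37 °C, 5 and 5 in spt7-1180, and 6 and 3 in spt8Δ. Its paralog ASM4 had a mean of 1.47 and held 3 and 0, 4 and 3, and 2 and 2 summits in the same order. NUP53 was above ASM4 in 5 of the 6 lists, and the wild type at 25 °C was the exception.

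NUP85, a subunit of the Y complex, stood at 2.83 per kb on average with a large difference between lists. It held 1 coding summit in the wild type at 25 °C, 7 in the wild type at 37 °C, 8 in each spt7-1180 list and 7 in each spt8Δ list. The single peak of the wild type at 25 °C overlapped a site that all 6 lists share. The lowest background of that list was 10.8 reads, and the other lists lay between 5.98 and 36.3. Its part in the difference was not tested.

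NUP157, a scaffold gene of the inner ring, showed the reverse in the same strain. It held 10 coding summits in the wild type at 25 °C and 3 at 37 °C, 13 and 13 in spt7-1180, and 10 and 15 in spt8Δ. Its paralog NUP170 had a lower density in 5 of the 6 lists, with 6 and 5, 9 and 7, and 2 and 4 summits. The paralogs NUP100 and NUP116 (means of 2.14 and 2.39 per kb) lay closer together, as did MLP1 and MLP2.

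At the other end was SEC13, whose product is a coat protein shared with COPII vesicles. Its coding region (chromosome 12, 559551 to 560444, plus strand, 894 bp) and both flanking windows held no summit in any list. Of the 654 genes of 800 to 999 bp, 23 (3.52%) had no coding summit in any of the 6 lists, and the mean was 8.74 summits over the 6 lists. The 0 of SEC13 was thus shared by 3.52% of the genes of this length, and its distance from their mean was not tested. SEC13 is named here because it was the lowest of the 32 members.

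POM34, a small integral membrane protein of the pore, held 1 coding summit in the wild type at 37 °C, 1 in spt8Δ at 25 °C and none in the other 4 lists (mean 0.37 per kb). SEH1, whose product is also part of the SEA complex at the vacuole, held 2 and 1 in the wild type, 1 and 0 in spt7-1180, and 0 and 1 in spt8Δ (mean 0.794 per kb). The next lowest was NSP1, for an FG protein of the channel, with 2 and 3, 5 and 3, and 2 and 0 summits (mean 0.965 per kb).

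The remaining members lay between these, and their counts follow in the order wild type, spt7-1180 and spt8Δ, each at 25 and then 37 °C. In the outer ring, NUP84 held 8 and 4, 6 and 5, and 4 and 5 coding summits. NUP120 held 7 and 7, 10 and 7, and 3 and 4, and NUP145 7 and 7, 11 and 14, and 11 and 11. NUP133 held 6 to 9 per list. In the inner ring, NUP188 held 6 and 13, 9 and 11, and 7 and 7, while NIC96, the anchor of the channel, held 4 to 11 and NUP192 9 to 18. In the membrane ring, POM152 held 11 and 12, 8 and 10, and 6 and 9, and NDC1, for a protein shared with the spindle pole body, 3 to 6. Among the channel proteins, NUP100 held 8 and 5, 6 and 8, and 5 and 5, NUP49 0 to 3, NUP57 1 to 4 and NUP116 4 to 11.

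On the cytoplasmic side, NUP82, for the anchor of the filaments, held 5 and 3, 5 and 5, and 6 and 4. NUP42 held 1 and 4, 0 and 3, and 3 and 2, and GLE1, for the activator of the helicase Dbp5, 1 and 3, 3 and 2, and 1 and 1. GLE2, an mRNA export gene, held 1 and 1, 2 and 4, and 1 and 5. NUP159, whose product docks Dbp5, held 7 to 16 per list. In the basket, NUP2 held 7 and 4, 6 and 6, and 4 and 7, and MLP2 12 and 8, 14 and 18, and 10 and 12. NUP1 held 1 to 7 and MLP1 11 to 16. MLP1 and MLP2 are among the longest members, so that their counts are high at a density of 2.28 and 2.45 per kb.

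FG repeats are encoded by repetitive DNA, and the density over it was looked at after the values by gene had been seen. The annotated coding sequences of 10 members encode at least 8 FG dipeptides. Coding DNA within 30 residues of an FG dipeptide amounted to 15057 bp and held 178 summits over the 6 lists, or 1.97 per kb and list. The rest of the same genes, 11706 bp, held 142 summits or 2.02 per kb, and the other 22 members 2.13. Thus, over the 10 genes together, the density over FG-coding DNA was close to that over the rest of the same genes. The GC content of the FG-coding DNA was higher, at 43.1% against 38.1%. Single genes differed in both directions. NSP1 held 6 summits in 1863 bp of FG-coding DNA and 9 in the other 609 bp, whereas NUP2 held 25 in 1275 bp and 9 in the other 888 bp.

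The strongest peak of the pore genes lay in a coding region in all 6 lists, and these regions belonged to 4 genes. In the wild type at 25 °C it lay in MLP2, for a coiled-coil protein of the basket, 2159 bp after the start codon with a fold enrichment of 7.47. At 37 °C it lay in POM152, for a membrane ring protein with a large part in the lumen of the envelope, at 3760 bp with 9.14. POM152 also held it in spt7-1180 at 25 °C, at 1134 bp with 5.34. In spt8Δ at 25 °C the strongest peak lay in NUP100, for an FG protein of the channel, at 1971 bp with 8.78. In each list, 119 to 340 peaks elsewhere (0.705 to 1.96%) were stronger than the strongest pore peak.

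Bases that lay in a peak of all 6 lists formed 4 sites in the pore genes, against 686 in the genome. Of these sites, 3 lay in coding regions (0.0341 per kb, 0.00702 to 0.0995), where all genes had 0.0472 per kb. The sites are shown because they are the stretches of pore genes found under every strain and temperature, on the strand of the gene, with the common bases in capitals and 15 bases on each side, from RefSeq (R64, the same assembly as sacCer3).
NUP85, chr10:514468-514538, plus strand: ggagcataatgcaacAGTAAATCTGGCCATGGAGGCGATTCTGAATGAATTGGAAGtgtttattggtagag
NUP100, chr11:312137-312187, plus strand: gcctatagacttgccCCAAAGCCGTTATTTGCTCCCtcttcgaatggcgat
NUP116, chr13:363623-363676, minus strand: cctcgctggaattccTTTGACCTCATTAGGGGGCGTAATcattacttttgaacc

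At the NUP85 site, 448 bp into the coding region, the fold enrichment was 4.08 and 7.17 for wild-type cells at 25 and 37 °C, 3.36 and 2.55 in spt7-1180, and 3.22 and 4.12 in spt8Δ. At the NUP100 site, 1963 bp into the coding region, it was 3.06 and 5.45, 4.61 and 3.46, and 8.78 and 3.42. The peak in spt8Δ at 25 °C is the strongest of that list in the pore genes. At the NUP116 site, 3056 bp into the coding region, it was 3.31 and 6.31, 2.93 and 3.06, and 3.11 and 3.05. The summits of the different lists were 80 bp apart at NUP100, 88 bp at NUP85 and 368 bp at NUP116, where the peak of spt7-1180 at 25 °C is wide. With a reciprocal overlap of 50% required between all lists, 0 of the 4 sites remained. In all, 54.6% of the coding bases of the pore genes lay in a peak of at least 1 list, against 45% for all genes, and 4.7% lay in peaks of at least 4 lists, against 3.35%.

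The upstream regions of the pore genes had a summit about as often as those of genes in general. In the wild type, 16 of 32 members had an upstream summit at 25 °C (50%, 33.6 to 66.4%) and 15 at 37 °C (46.9%, 30.9 to 63.6%), where the shares of all 6002 genes were 39.7% and 44.8%. In spt7-1180 there were 14 and 15 (43.8% and 46.9%), against 38% and 40.8% of all genes. In spt8Δ there were 17 and 12 (53.1% and 37.5%), against 41.8% and 40.2%. The interval of each of the 6 shares included the share of all genes. After the stop codon, 3 and 4 members had a summit in the wild type, with 5 and 2 for spt7-1180 and 4 and 2 for spt8Δ. The shares of all genes in that window were 9.36% and 12.2% in the wild type, 8.65% and 10% in spt7-1180, and 10.4% and 9.2% in spt8Δ, and each lay within the interval for the members. Among the 5 TREX-2 genes, 4 and 3, 4 and 2, and 3 and 2 had an upstream summit in the same order. Among the 28 nuclear transport genes there were 12 and 14, 9 and 13, and 14 and 5.

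**Figure D3:**
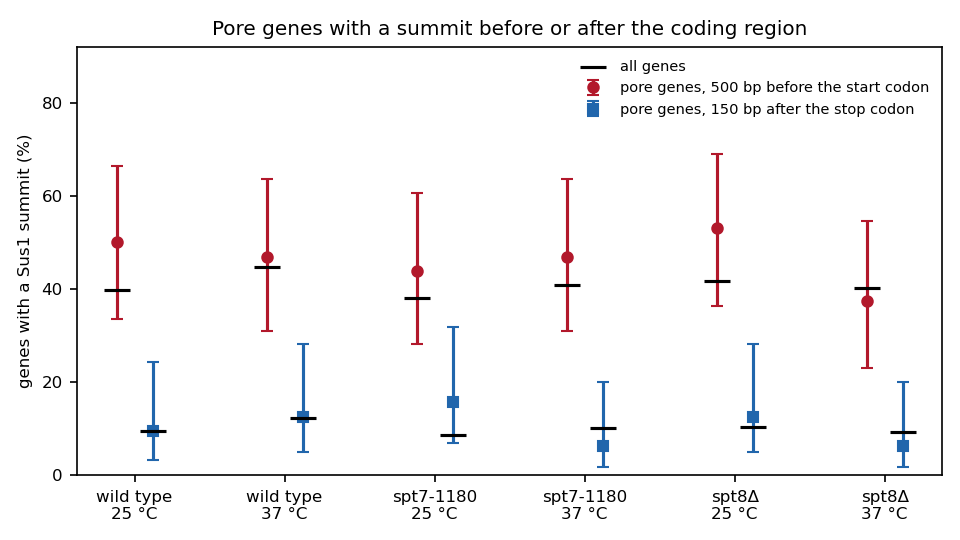
Percent of the 32 pore genes (vertical axis) with a Sus1 summit upstream (500 bp to the start codon) or after the stop codon (150 bp), in the 6 lists (horizontal axis). Points are the pore genes with Wilson 95% intervals and black dashes are all 6002 genes. The upstream shares run from 37.5% to 53.1%, and every interval covers the share of all genes.

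Many of these upstream summits lay within a neighbouring gene. Over the 6 lists there were 97, of which 48 (49.5%) fell in the coding region of another gene, although such sequence makes up 23.2% of the upstream windows of the members. For all genes, 31% of the upstream summits fell in another coding region, which makes up 21.7% of the windows. By distance, 19 lay within 100 bp of the start codon, 19 further out but within 300 bp and 59 beyond that. With summits inside other coding regions left out, 8 and 9 of 32 members had an upstream summit in the wild type, with 6 and 6 for spt7-1180 and 9 and 6 for spt8Δ. For all genes the shares were then 28.1% and 33.6%, 25% and 28%, and 31% and 29.4%, above those of the members in every list. No interval was set on these small counts, and the difference was not tested.

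Across the lists, 8 of 32 members had an upstream summit in at least 5 of the 6, where the share of all genes was 14.7%. They were NUP84, NUP120 and NUP145 of the outer ring, NUP157 of the inner ring, NUP42 and GLE1 of the cytoplasmic side, and NUP2 and MLP2 of the basket. NUP84 and NUP2 had one in all 6, as did 5.8% of all genes. No upstream summit was found in any list for 6 members, SEC13, ASM4, POM34, NUP100, NUP82 and GLE2, where 16.9% of all genes had none. By group, an upstream summit was present in 24 of 42 gene and list pairs in the outer ring, 15 of 42 in the inner ring, 7 of 18 in the membrane ring, 10 of 30 among the channel proteins, 14 of 30 on the cytoplasmic side and 19 of 30 in the basket. For all members it was 89 of 192 (46.4%), and for all genes 40.9%.

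**Figure D4:**
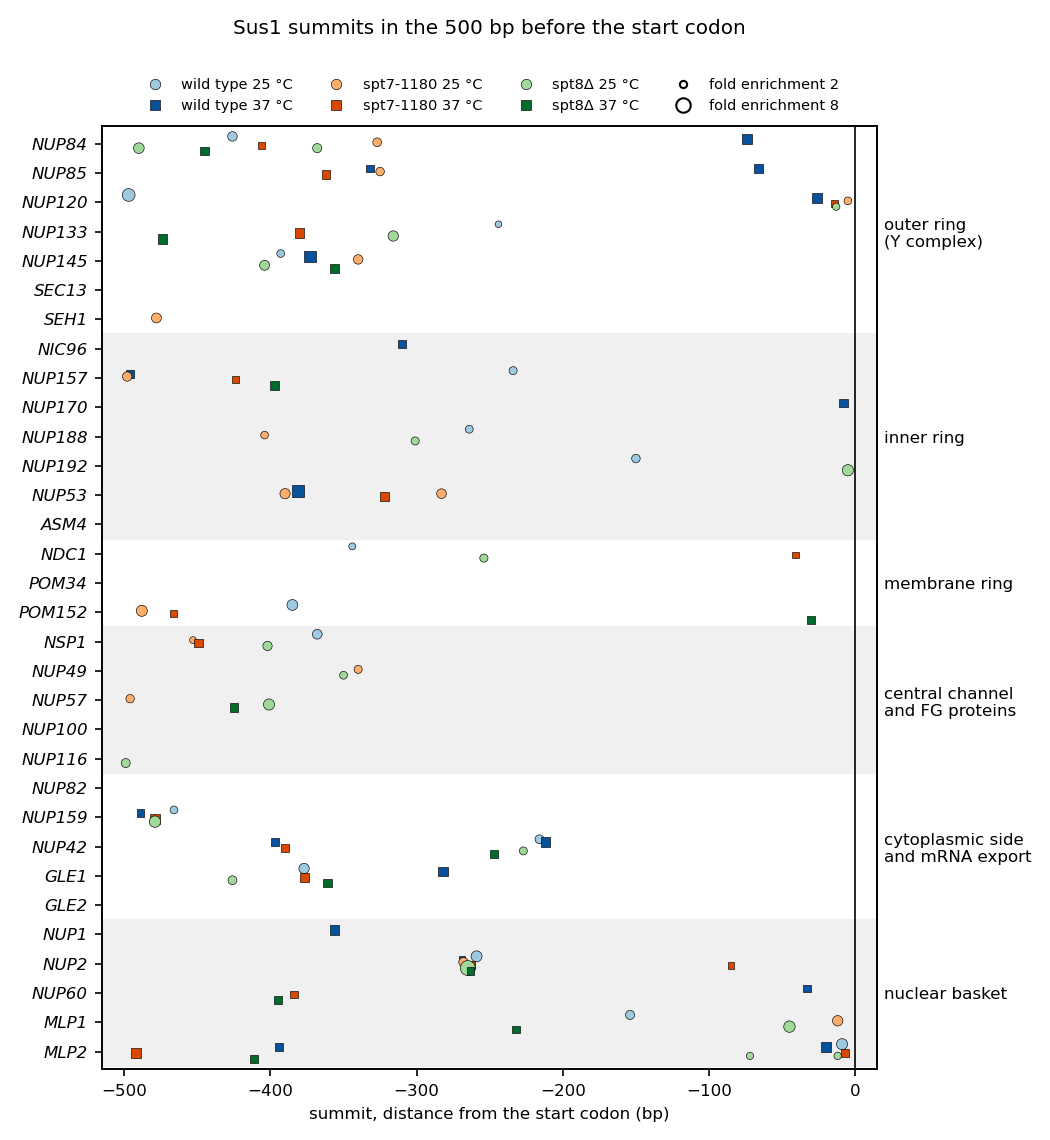
Position of each upstream Sus1 summit in bp from the start codon (horizontal axis) for each pore gene (vertical axis, by group). Colour and shape give the list, and the area of a point is proportional to its fold enrichment. At NUP2 the 6 lists have summits between 269 and 259 bp before the start codon, and SEC13, ASM4, POM34, NUP100, NUP82 and GLE2 have none.

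The upstream site of NUP2, a mobile FG protein of the basket, was the only one of these that fell at the same place in all lists. The summits lay 259, 269, 268, 263, 265 and 263 bp before the start codon in the wild type, spt7-1180 and spt8Δ, each at 25 and then 37 °C. The fold enrichment was 4.56 and 1.84 in the wild type, 3.38 and 2.18 in spt7-1180, and 8.59 and 2.11 in spt8Δ, higher at 25 °C than at 37 °C in each of the 3 strains. The -log10 q was 44.2 and 3.74, 49.3 and 48.3, and 112 and 29.4 in the same order. A further summit lay 85 bp before the start codon in spt7-1180 at 37 °C. A fold enrichment is relative to the background of its own list, so these values were not compared as amounts of bound Sus1.

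The site lies at a tRNA gene. A glutamate tRNA gene of 72 bp (chromosome 12, 797178 to 797249, plus strand) ends 180 bp before the start codon of NUP2, and the 6 summits lay 7 to 17 bp before it. tRNA genes are transcribed by RNA polymerase III from promoter elements within the gene. A Ty1 long terminal repeat (796899 to 797088) reaches into the same window. The sequence from the first common base to the end of the tRNA gene is shown to place the summits beside it, with the tRNA gene in capitals.
NUP2 upstream, chr12:797127-797249, plus strand: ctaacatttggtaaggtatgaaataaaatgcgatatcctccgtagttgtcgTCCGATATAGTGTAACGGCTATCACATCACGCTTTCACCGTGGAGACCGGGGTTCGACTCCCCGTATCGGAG

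NUP2 was the only member with a tRNA gene in its 500 bp upstream region. Of the 163 genes with such a neighbour, 115 (70.6%) had an upstream summit in all 6 lists, against 233 of the other 5839 genes (3.99%). Within 1 kb of a coding region there were tRNA genes at 3 more members. NUP100 and NUP116, which are paralogs, each have a histidine tRNA gene after the stop codon, 322 bp away at NUP100 (chromosome 11, 313401 to 313472) and 228 bp away at NUP116 (chromosome 13, 363064 to 363135). Both had a summit within 100 bp in all 6 lists. NUP192 has an aspartate tRNA gene 624 bp before its start codon with a summit within 100 bp in all 6 lists, and an arginine tRNA gene beyond it with a summit in 2. Of all 275 tRNA genes, 205 (74.5%) had a summit within 100 bp in every list.

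NUP84, for a scaffold subunit of the Y complex, also had an upstream summit in every list, but at different places. The summits lay 426 and 74 bp before the start codon in the wild type, 327 and 406 bp in spt7-1180, and 490 (with a second at 368) and 445 bp in spt8Δ. The strongest had a fold enrichment of 3.48 and 4.01, 2.93 and 2.07, and 4.34 and 2.75. Apart from those at 74 and 327 bp, they lay in the coding region of CYK3, a neighbouring gene for cytokinesis.

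NUP120 of the same complex had its summits next to the start codon in 4 lists, 26 bp before it in the wild type at 37 °C (fold enrichment 4.01), 5 and 14 bp in spt7-1180 (2.29 and 1.94) and 13 bp in spt8Δ at 25 °C (2.06). The wild type at 25 °C had a summit 497 bp away instead (6.25), inside TMA19, and spt8Δ at 37 °C had none. NUP145, which encodes the precursor of an FG protein and a scaffold protein, had summits within a stretch of 64 bp in 5 lists. They lay 393 and 373 bp before the start codon in the wild type (2.29 and 4.87), 340 bp in spt7-1180 at 25 °C (3.45), and 404 and 356 bp in spt8Δ (3.78 and 3.05). All 5 fell in the coding region of SPC105, a kinetochore gene, and spt7-1180 at 37 °C had none.

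At NUP157 the summits lay 234 and 496 bp before the start codon in the wild type (2.46 and 2.58), 498 and 424 bp in spt7-1180 (3.4 and 2.23) and 397 bp in spt8Δ at 37 °C (3.15). All but the nearest were in the coding region of MAM1, and spt8Δ at 25 °C had none. NUP42, whose product binds Gle1, had summits in sequence free of other coding regions, 216 and 212 bp before the start codon in the wild type (2.97 and 3.44), 390 bp in spt7-1180 at 37 °C (2.04), and 227 and 247 bp in spt8Δ (2.45 and 2.88). A further one lay at 397 bp in the wild type at 37 °C (2.72), and spt7-1180 at 25 °C had none. GLE1 had summits at 377 and 282 bp in the wild type (4.08 and 3.53), 377 bp in spt7-1180 at 37 °C (3.13), and 426 and 361 bp in spt8Δ (3.03 and 2.92), all within NHP2, a gene for a protein of H/ACA snoRNPs.

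MLP2 had summits close to its start codon in 4 lists. They lay 9 and 20 bp before it in the wild type (4.67 and 3.58), 7 bp in spt7-1180 at 37 °C (2.76) and 12 bp in spt8Δ at 25 °C (2.11). In spt8Δ at 37 °C the summit was 411 bp away (2.38), and spt7-1180 at 25 °C had none. The strongest upstream peak of MLP2 in spt7-1180 at 37 °C lay further out, at 492 bp (4.16). Weaker ones lay at 394 bp in the wild type at 37 °C (2.15) and 72 bp in spt8Δ at 25 °C (2). At its paralog MLP1, with summits in 4 lists, they lay 154 bp from the start codon in the wild type at 25 °C (3.14), 12 bp in spt7-1180 at 25 °C (4.14), and 45 and 232 bp in spt8Δ (5 and 2.35). Both upstream regions are free of other coding sequence.

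The other members with upstream summits had them in 1 to 4 lists. NUP159 had them in 4, within 23 bp of each other in the coding region of POR2, a gene for a mitochondrial porin. This site is shown because bases of it lay in peaks of 5 lists, as at MLP1 and more than at any other member but NUP2. Capitals mark the bases within the 500 bp upstream region that lay in peaks of at least 4 lists. The stretch was cut at the far edge of that region. The lower-case bases before the capitals lie beyond it and were also covered by peaks of at least 4 lists.
NUP159 upstream, chr9:149158-149224, minus strand: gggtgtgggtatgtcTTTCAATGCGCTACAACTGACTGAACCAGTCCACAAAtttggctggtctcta

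Its summits lay 466 and 489 bp before the start codon in the wild type (2.33 and 2.12) and 479 bp both in spt7-1180 at 37 °C (3.56) and in spt8Δ at 25 °C (4.96). NUP133, POM152 and NSP1 also had an upstream summit in 4 lists, NUP85, NUP188, NUP53, NDC1, NUP57 and NUP60 in 3, NUP192 and NUP49 in 2, and SEH1, NIC96, NUP170, NUP116 and NUP1 in 1. Those of POM152 lay 385 bp before the start codon in the wild type at 25 °C (4.5), 488 and 466 bp in spt7-1180 (4.7 and 1.91), all within ECM16, a gene for rRNA processing, and 30 bp in spt8Δ at 37 °C (2.38). Those of NSP1 lay in MHP1, those of NUP53 in YIM1 and those of NUP57 in COG2.

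Upstream summits that were listed at 1 temperature only were found in both directions in every strain. In the wild type, 6 members had an upstream summit at 37 °C only and 7 at 25 °C only, where the shares of all genes were 22.6% and 17.5%. In spt7-1180 these numbers were 7 and 6 (18.3% and 15.5% of all genes), and spt8Δ had 3 and 8 (17.9% and 19.5%). At 37 °C only, the wild type had NUP85, NIC96, NUP170, NUP53, NUP1 and NUP60. At 25 °C only, it had NUP133, NUP188, NUP192, NDC1, POM152, NSP1 and MLP1.

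NUP60 alone had its upstream summits at 37 °C only in all 3 strains, as did 1.55% of all genes. The pattern depended on the use of summits. With any part of a peak counted, a check added after the data were seen, NUP60 had an upstream peak in 5 lists, including the wild type and spt8Δ at 25 °C, and 0 members kept the pattern (1.3% of all genes). In the wild type the summit lay 33 bp before the start codon (fold enrichment 2.14), in spt7-1180 384 bp (2.25) and in spt8Δ 395 bp (2.48). The sites of the mutants are 11 bp apart, and that of the wild type is elsewhere in the window. The -log10 q was 2.31 in the wild type and 9.5 and 10.2 in the mutants. The centromere of chromosome 1 (151465 to 151582) lies 674 bp before the start codon, outside the window.

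NUP188, for a large scaffold of the inner ring, was the only member with upstream summits at 25 °C only in all 3 strains, a pattern of 0.733% of all genes. They lay 264 bp before the start codon in the wild type (2.37), 404 bp in spt7-1180 (2.26) and 301 bp in spt8Δ (2.47). The first and last fell within SNR85 (chromosome 13, 67768 to 67938), which encodes an H/ACA snoRNA, and that of spt7-1180 lay beyond it. With any part of a peak counted, NUP188 kept the pattern, as did 0.766% of all genes. The summits of the 3 strains did not all lie at the same place at either gene. At NUP60 those of the mutants were close together, and at NUP188 the peaks of the wild type and spt8Δ overlapped. The coding regions of both genes held summits at both temperatures.

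Between strains, the members with an upstream summit differed in both directions. At 25 °C, 7 members had one in the wild type and not in spt7-1180, and 5 the reverse, where all genes had 18.6% and 16.8%. Against spt8Δ at 25 °C the numbers were 2 and 3, below the 17.8% and 19.9% of all genes, with 14 members in common. At 37 °C they were 4 and 4 for spt7-1180 (21.1% and 17.1% of all genes) and 7 and 4 for spt8Δ (21.2% and 16.6%). The wild-type list is shared by the comparisons of a temperature. NUP49 and NUP57, both channel proteins, had an upstream summit in each mutant and not in the wild type at 25 °C, as did 7.95% of all genes. NIC96, NUP170 and NUP1 had one in the wild type at 37 °C and in neither mutant at that temperature, a pattern of 13.7% of all genes. NUP133 and POM152 showed the reverse at 37 °C, as did 8.81% of all genes. For these 3 patterns the members numbered 2, 3 and 2 of 32. At 25 °C, 0 members had an upstream summit in the wild type and in neither mutant, a pattern for which the share of all genes was not counted.

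The 300 bp before the start codon were searched on both strands for the letters of 3 promoter elements. TTACCCG, the core of sites for the general regulatory factor Reb1, was found in 8 of 32 members (25%) and in 7.9% of all genes. The members were SEC13, NIC96, NUP157, NUP188, NUP53, NUP116, GLE1 and MLP2. The upstream summit nearest to these letters in any list was 90 bp away, at NUP157. GAANNTTC, the paired unit of heat shock elements, was found in 7 members (21.9%) and in 11.5% of all genes. TATAAA was found in 11 (34.4%), below the 48.2% of all genes. These are matches of letters and were not tested as binding sites.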

How the data were processed

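Sus1-MYC ChIP-exo peak lists of the wild type, spt7-1180 and spt8Δ at 25 and 37 °C were used. Reads were aligned by the authors to sacCer3 using BWA (0.6.2 in the submitters' processing notes, another version in the methods; CASAVA 1.7 is also named). How peaks were called, against which control and from which replicates is not given in the sources used here. The layout of the deposited lists is that of MACS2. Each deposited list gives positions in bp, a display score per peak that was not used, a fold enrichment (the ratio of signal to local background in that list), and -log10 p and -log10 q. All peaks have a q-value under 0.05. Read totals are not part of the lists, so the depth itself is not known and only backgrounds solved from these values are given. Heights solved with them came within 0.05 of a whole number at 97.9 to 100% of the peaks for which solving was tried. The lowest backgrounds are those among these peaks. The labels name 22 samples, 3 per tagged condition and 2 per no-tag group, whereas the methods describe fewer replicates. No-tag samples were left out here.

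All chromosome names and peak ends fitted the RefSeq R64 annotation, which is the sacCer3 assembly. A summit counted for each window that held it, so windows of neighbouring genes overlap. The 32 members, the lists of other genes and the windows were chosen with earlier results of these data known. Every member is named. Coding counts in every list are given for members with upstream summits in at least 5 lists or in none, with the same heat pattern in all 3 strains, with the 3 highest or 3 lowest coding densities, or with the strongest peak of a list. Other genes are named only as neighbours of a summit, which goes beyond that rule, and NUP157, NUP159, MLP1 and the paralogs were added after their values were seen. Alternatives were peak midpoints, only peaks with q under 1e-05, the same number of peaks from every list (16593, then the 5000 strongest), any overlap with the upstream region, upstream regions of 300 and 1000 bp, upstream summits outside other coding regions, 250 bp after the stop codon, coding regions without their first and last 250 bp, genes of at least 1000 bp as the reference, and a reciprocal overlap of 50%. Any overlap was applied to the heat patterns shared by all 3 strains after the data had been seen. Python 3.11.15, numpy 2.4.6, pandas 2.3.3, scipy 1.17.1 and matplotlib 3.10.9 were used. Counting and solving were tested on simulated data.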

Additional observations from a re-analysis of the deposited data

Results flagged for a closer look

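With all listed peaks, the coding density of the pore genes moved in opposite directions with heat shock in the wild type and in the mutants. The change from 25 to 37 °C was -0.21 summits per kb in the wild type, against 0.09 in spt7-1180 and 0.11 in spt8Δ. For all genes the density went from 1.57 to 1.59 in the wild type, from 1.71 to 1.91 in spt7-1180 and from 1.5 to 1.59 in spt8Δ. The ratio of the pore genes to all genes went from 1.3 to 1.14, from 1.44 to 1.33 and from 1.18 to 1.18. With all listed peaks it was thus lower at 37 °C in the wild type and in spt7-1180. With equal numbers of peaks it went from 1.29 to 1.07 in the wild type and was 1.39 at both temperatures in spt7-1180. With the 5000 strongest peaks it went from 1.04 to 1.22 in the wild type, from 1.59 to 1.36 in spt7-1180 and from 1.3 to 1.55 in spt8Δ. The density itself also took other directions with the 5000 strongest peaks. It then rose from 0.488 to 0.556 per kb in the wild type and from 0.59 to 0.692 in spt8Δ, and fell from 0.738 to 0.636 in spt7-1180. The directions of change thus depended on which peaks were kept. With 1 list per condition these differences were not tested. The Poisson intervals at 25 and 37 °C overlapped in each strain. The lowest background was lower at 37 °C than at 25 °C in the wild type and higher at 37 °C in both mutants, and its part in the difference was not tested.

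The number of pore genes with an upstream summit changed by -1 in the wild type, by 1 in spt7-1180 and by -5 in spt8Δ, and the difference between these changes was not tested either. Over all genes the share with an upstream summit went from 39.7 to 44.8%, from 38 to 40.8% and from 41.8 to 40.2% in the same order. In spt8Δ 8 members had an upstream summit at 25 °C only and 3 at 37 °C only.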

How the results depend on the processing

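Of 147 values under alternatives, 95 were close to the value reported, 52 moved and 0 reversed. Only the 36 ratios among them have a direction that could reverse. The 0 therefore does not speak for the counts and densities, or for changes between the temperatures. In the wild type at 25 °C, 50% of members had an upstream summit against 39.7% of all genes. With summits in other coding regions left out it was 8 of 32 against 28.1%, and this change of side was not classed as a reversal. A count of members was held to have moved when it differed by over 1.5 times, and a density or ratio when it left its counting interval. The ratio of the members' coding density to that of all genes stayed above 1 in all 36 alternative values (1.04 to 1.59). Its interval lay above 1 in 21 of the 30 that have one. It came to include 1 in 2 of them, the wild type at 25 °C with the 5000 strongest peaks (0.753 to 1.4) and spt8Δ at 37 °C without the ends of the coding region (0.979 to 1.38). It came to lie above 1 in 3, spt8Δ at 25 °C by midpoints (1.01 to 1.39) and without these ends (1.03 to 1.46) and the wild type at 37 °C without them (1.01 to 1.43). No paired analysis was possible because each deposited list stands for a whole condition, and for the same reason no replicate was left out. A gene without a summit is one without a listed peak, and whether deeper lists would hold more of them was not tested.

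Values are given in the order wild type, spt7-1180 and spt8Δ, each at 25 and then 37 °C. Members with an upstream summit numbered 8, 9, 4, 4, 7 and 4 with 300 bp (all genes 22.3, 26.6, 19.7, 21.7, 23.8 and 21.9%), 27, 23, 23, 27, 26 and 24 with 1000 bp (69.4, 73, 66.9, 68.5, 69.3 and 66.6%), 8, 9, 6, 6, 9 and 6 outside other coding regions (all genes 28.1, 33.6, 25, 28, 31 and 29.4%), and 5, 2, 7, 6, 7 and 6 among the 5000 strongest peaks (11.8, 12.8, 11.7, 11, 13.1 and 13.4%). With those peaks the coding density was 0.488, 0.556, 0.738, 0.636, 0.59 and 0.692 per kb, the ratio to all genes moved to 1.04 in the wild type at 25 °C and 1.55 in spt8Δ at 37 °C, and 1, 2, 0, 1, 0 and 1 members had a summit after the stop codon (2.03, 2.82, 2.08, 2.03, 2.73 and 2.42% of all genes). With 250 bp after the stop codon there were 9 and 8 in the wild type, 8 and 4 in spt7-1180 and 5 in spt8Δ at 37 °C (18.9, 22.9, 18.9, 22.1 and 19.7% of all genes). With a q-value under 1e-05 the coding density was 1.59 and 1.25 in the wild type, 2.08 in spt7-1180 and 1.28 in spt8Δ at 25 °C, and 2 members had a stop codon summit in spt7-1180 at 25 °C (7.45% of all genes). With equal numbers of peaks the density was 2.19 in spt7-1180 at 37 °C, and 3 members had a stop codon summit in spt7-1180 at 25 °C (7.91%). With a reciprocal overlap of 50%, 0 sites were common to the 6 lists. With any part of a peak counted, chosen after seeing the data, 0 members had an upstream peak at 37 °C only in all 3 strains in place of 1, and NUP188 kept the pattern at 25 °C only.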
